A study of Mus musculus with 6 samples.

Results

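The regions described here are stretches of the mouse genome where the H3K36me3 read density differed between mature T cells of the CD4 and the CD8 lineage taken from thymus. Members were chosen on 10 kb windows of chromosomes 1 to 19 and X (build mm9). A window was tested when it held at least 20 H3K36me3 reads and at least 2 times the input level in either cell type, with each library scaled to its own total. It was called when the centred ratio of the 2 libraries was at least 2-fold and its exact interval, which left out 0.1%, excluded 1, and adjacent called windows of the same direction were joined into blocks. Of 263904 windows, 30227 were tested. Of these, 628 were called higher in CD4 cells, which is 2.08% of the windows tested, and 253 were called higher in CD8 cells, which is 0.837%. They formed 519 blocks higher in CD4 cells and 194 blocks higher in CD8 cells.

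All cells came from C57BL/6 mice, and the 2 groups were mature CD4+ and mature CD8+ thymic T cells with no treatment named. Chromatin was cut to single nucleosomes with micrococcal nuclease, an enzyme that digests the DNA between nucleosomes, and precipitated with rabbit polyclonal antibodies to H3K36me3 or H3K4me3. Cut chromatin without antibody served as input, which gave 6 libraries in all, 1 for each cell type and each of H3K36me3, H3K4me3 and input. With 1 library a side there is no replicate error: every interval covers counting error only, no p-value is given, and a difference is one between these 2 libraries.

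H3K36me3 is the trimethylated form of lysine 36 of histone H3. It is laid down by the methyltransferase Setd2, which travels with elongating RNA polymerase II, so the mark covers the bodies of transcribed genes and is usually denser towards their ends. H3K4me3, the trimethylated form of lysine 4, sits as narrow domains at active gene starts. CD4 and CD8 T cells are the helper and cytotoxic lineages that separate late in thymic development.

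The H3K36me3 libraries were of nearly equal depth, with 6727867 reads on the chromosomes used in CD4 cells and 6755234 in CD8 cells. Distinct read positions made up 91.2% and 91.8% of them. Away from enriched chromatin, their level was 31.7% and 32.5% of that of input. The H3K4me3 libraries were less alike: the same background was 19.2% of input in CD4 cells and 1.20% in CD8 cells, and 54.4% and 31.4% of the reads had distinct positions. Every H3K4me3 comparison below rests on those 2 libraries.

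Gene names are not attached to the blocks, because the files give mm9 positions and no mm9 annotation was used here. For the same reason the labelled cell types were not checked against their marker genes. Of 4 genes listed for this comparison, Itgae encodes the integrin alpha chain CD103 and lies on chromosome 11, as does Itgb3, an integrin beta chain. Atp8b4, a phospholipid-transporting ATPase, and Ass1, the argininosuccinate synthase, both lie on chromosome 2. Their H3K36me3 was not measured as genes. Length alone would not identify them either. On chromosome 11 there are 48 protein-coding genes, Itgae included, within 10% of the length of Itgae in the RefSeq table of GRCm38.

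Called differences between the 2 cell types were few and short. In CD4 cells 441 of the 519 higher blocks were a single window (85.0%), 20 had 3 windows or more, and the longest spanned 60 kb. In CD8 cells 159 of the 194 higher blocks were a single window (82.0%), 8 had 3 windows or more, and the longest spanned 150 kb. The block ratios were alike in the 2 directions, with a median of 2.28-fold (range up to 26.8) for blocks higher in CD4 cells and 2.24-fold (2.01 to 6.49) for blocks higher in CD8 cells. The value of 26.8 rested on 26 and 1 reads in a single window (95% interval 4.402 to 1099). These ratios chose the blocks and are given as a description.

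The call threshold cut through a continuous range. Just inside it on the CD4 side was a window with 99 CD4 and 51 CD8 reads, and just outside it was a window with 91 and 47. On the CD8 side the nearest windows held 45 and 93 reads inside and 84 and 173 outside. At any fold, that interval excluded 1 in 2097 windows higher in CD4 cells and 1298 higher in CD8 cells.

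**Figure D1:**
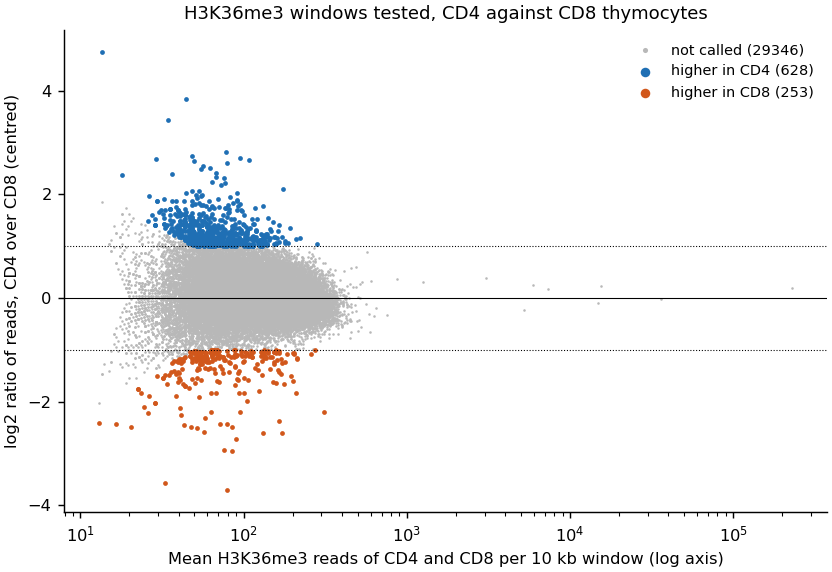
Each point is a tested 10 kb window, with the mean H3K36me3 reads of the 2 libraries on a log axis and the centred log2 ratio of CD4 over CD8 reads on the vertical axis. Coloured points are the 628 windows called higher in CD4 cells and the 253 called higher in CD8 cells, at the edges of a continuous cloud.

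The block of 60 kb on chromosome 11, chr11:72910001-72970000, had the largest lower bound of the ratio among blocks higher in CD8 cells. Its 6 windows held 97, 156, 168, 297, 148 and 88 reads in CD8 cells. The same windows held 19, 23, 41, 47, 11 and 15 reads in CD4 cells. The highest CD4 window, with 47 reads, was below the lowest CD8 window, with 88. Over the block this was 954 against 156 reads, 5.93-fold (95% interval 5.005 to 7.07). The level was 6.55 times input in CD8 cells and 0.88 times input in CD4 cells. The CD4 level was below the 2 times input asked of an enriched window, but above that library's background of 31.7% of input far from enriched chromatin. Nearer by, the 24 unenriched windows within 200 kb held 446 CD4 reads, against 156 in the 6 windows of the block. The block filled its whole run of adjacent windows enriched in CD8 cells. H3K4me3, a readout the block rule did not use, lay just before its left edge: the strongest 2 kb window held 1115 reads in CD8 cells and 36 in CD4 cells, a centred log2 ratio of -4.37.

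The longest block, chr2:126140001-126290000, covered 150 kb and was also higher in CD8 cells. It held 2791 reads in CD8 cells and 913 in CD4 cells, 2.97-fold (2.75 to 3.20), and the log2 ratios of its 15 windows ran from -2.95 to -1.24. CD4 cells stayed at 1.88 times input there, against 5.84 in CD8 cells. The run of windows enriched in CD8 cells went on for another 30 kb to 126320000, and 2 of the 3 further windows were also called higher in CD8 cells. Here H3K4me3 did not follow: the strongest window, just past the far end of that run, held 867 reads in CD8 cells and 633 in CD4 cells, a centred log2 ratio of 0.13 that was not called. The block itself with 10 kb on each side held few H3K4me3 reads, 246 in the CD4 library and 46 in the CD8 library, or 77.2 and 34.6 once the background of each was subtracted. By the call rule this was higher in CD4 cells, with a centred log2 ratio of 2.999 as counted, opposite to H3K36me3.

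A pair of neighbouring blocks lay on chromosome 6. The first, chr6:71270001-71290000, held 510 reads in CD8 cells and 124 in CD4 cells, 3.99-fold (3.27 to 4.90), and reached 13.45 times input in CD8 cells. The second, chr6:71300001-71330000, held 409 and 101 reads, 3.93-fold (3.15 to 4.94), at 5.92 times input. Both carried H3K4me3 that came mostly from the CD8 library. The strongest 2 kb window held 1404 reads in CD8 cells and 23 in CD4 cells at the first, and 1544 and 20 at the second. CD4 cells were still at 2.37 times input for H3K36me3 in the first block and at 1.11 in the second.

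Other blocks higher in CD8 cells included some where CD4 cells were below the input level and some where both cell types were above 2 times input. The block chr8:97450001-97470000 was of the first kind, with 290 reads in CD8 cells against 50 in CD4 cells, 5.63-fold (4.16 to 7.76), and its strongest H3K4me3 window held 1216 and 22 reads. So were chr5:100980001-101000000 with 189 against 42 reads and chr6:129540001-129570000 with 279 against 60. Around the latter, H3K4me3 was 79 reads in the CD4 library and 47 in the CD8 library, or 41.2 and 44.0 after background subtraction. Unenriched windows within 200 kb of that block had an H3K36me3 log2 ratio of -0.71, on 750 CD8 and 444 CD4 reads. The block chrX:38940001-38960000 had a ratio of 6.49-fold (3.82 to 11.76), on 107 and 16 reads, and no enriched H3K4me3 window was found near it. Centred on its own chromosome its log2 ratio was -2.46, and the unenriched windows within 200 kb of it were at -1.28, on 482 CD8 and 193 CD4 reads. These 4 blocks had 0.60 to 0.88 times the input level in CD4 cells.

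Of the second kind, chr9:40780001-40800000 held 815 reads in CD8 cells and 205 in CD4 cells, 3.86-fold (3.31 to 4.52), at 12.03 and 2.90 times input. The block chr9:44890001-44920000 held 777 and 255 reads, 2.96-fold (2.56 to 3.42), and its strongest H3K4me3 window held 901 and 260. Beside the first, H3K4me3 was sparse, with 17 reads in the CD8 library and 60 in the CD4 library, or 14.5 and 22.2 after background subtraction. As counted, it was called higher in CD4 cells. Both blocks were marked with H3K36me3 in CD4 cells too, so the difference there was one of degree. The remaining blocks named were smaller in count or ratio: chr18:58730001-58750000 held 182 against 57 reads, chr5:8690001-8710000 held 106 against 31, and chr1:69560001-69600000 held 493 against 194. In that order, CD4 cells were at 0.93, 0.96 and 1.75 times input there. The unenriched windows within 200 kb had log2 ratios of -0.26, -0.51 and -0.32. Over all 13 named blocks higher in CD8 cells, that surrounding ratio ran from -1.28 to 0.34. Of the 13 named blocks higher in CD8 cells, 10 had H3K4me3 within the block or 10 kb of it. As counted, with the unequal background of the 2 libraries left in, it was called higher in CD8 cells in 5 and higher in CD4 cells in 4. Beside enriched H3K36me3 runs with no called window, these shares were 0.49% and 13.2%. The 4 called higher in CD4 cells were the blocks at chr2:126140001, chr6:129540001, chr9:40780001 and chr18:58730001. After background subtraction their CD4 and CD8 reads were, in that order, 77.2 and 34.6, 41.2 and 44.0, 22.2 and 14.5, and 69.4 and 39.4. In the 5 called higher in CD8 cells, the CD8 library still held more reads after subtraction. On chromosome 9, a block of the other direction, singled out after its values were seen, adjoined the left edge of chr9:44890001-44920000: chr9:44870001-44890000 held 296 reads in the CD4 library and 106 in the CD8 library, 2.88-fold (2.30 to 3.63).

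Among blocks of 2 windows or more that were higher in CD4 cells, the largest ratio was at chr7:56830001-56860000, with 84, 126 and 85 reads in CD4 cells and 13, 26 and 14 in CD8 cells. That was 5.74-fold (4.27 to 7.84), at 3.23 times input in CD4 cells and 0.74 in CD8 cells. A second block 10 kb before it, chr7:56800001-56820000, held 195 against 58 reads, 3.46-fold (2.57 to 4.73). No enriched H3K4me3 window was found beside either block. Windows within 200 kb that were enriched in neither cell type were also higher in the CD4 library, with summed log2 ratios of 0.972 and 0.9988 around the 2 blocks.

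Chromosome 15 held another such pair. The block chr15:25700001-25740000 held 494 CD4 and 104 CD8 reads, 4.90-fold (3.95 to 6.11). Its neighbour chr15:25650001-25680000 held 337 and 69, 5.03-fold (3.87 to 6.62). CD8 cells were at 0.97 and 0.71 times input, below the cut of 2 times input. That library's background far from enriched chromatin was lower, at 32.5% of input, but nearby unenriched windows held about as many CD8 reads per window. Within 200 kb of the first block, 26 such windows held 609 CD8 reads, against 104 in its 4 windows. For the second block, 29 such windows held 626, against 69 in its 3 windows. The surrounding unenriched windows had log2 ratios of 0.67 and 0.72. The strongest H3K4me3 window of the first block held 167 CD4 and 286 CD8 reads, a centred log2 ratio of -0.20 that was not called. The block of 50 kb on this chromosome, chr15:27660001-27710000, was lower in ratio, with 556 against 207 reads, 2.77-fold (2.36 to 3.26).

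Of the 16 named blocks higher in CD4 cells, 10 had H3K4me3 within the block or 10 kb of it. In 6 of these it was called higher in CD4 cells, by the call rule used for H3K36me3 and with the unequal background left in. Beside enriched H3K36me3 runs with no called window, this share was 13.2%. The strongest H3K4me3 window of the run was called higher in CD4 cells for 3 of the 11 named blocks that had one. The H3K4me3 counts differed most in 2 of the 6. At chr6:124810001-124830000 there were 417 CD4 and 91 CD8 reads of H3K36me3, 4.72-fold (3.76 to 5.99), and the strongest H3K4me3 window held 1278 and 12 reads. At chr3:89180001-89200000 there were 135 and 28 H3K36me3 reads, 4.97-fold (3.29 to 7.76), and the block with 10 kb on each side held 5899 and 67 H3K4me3 reads. The other 4 held 703 and 132 reads (chr11:104480001-104540000), 213 and 100 (chrX:71100001-71120000), 283 and 137 (chr15:27660001-27710000) and 261 and 114 (chr4:134930001-134970000). In the first pair, H3K36me3 and H3K4me3 were higher in the same cell type. However, the strongest H3K4me3 window in the run of the chromosome 3 block held 759 and 1528 reads and was not called. That of the chromosome 4 block held 279 and 461 reads and was also not called.

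Of the 3 longest blocks higher in CD4 cells, those on chromosomes 11 and 2 were above 2 times input in CD8 cells too, while that at chr15:27660001-27710000 was at 1.3005 times input there. The block chr11:104480001-104540000 held 143, 273, 229, 50, 142 and 152 reads in CD4 cells. The same windows held 40, 110, 97, 16, 40 and 78 in CD8 cells. This was 2.68-fold (2.37 to 3.02), at 5.52 and 2.15 times input. The window with the fewest reads in both libraries also had the fewest input reads, 24 and 18. The block chr2:31330001-31380000 held 206, 180, 139, 209 and 250 reads in CD4 cells against 84, 56, 44, 74 and 124 in CD8 cells. It was 2.65-fold higher (2.36 to 2.996), at 7.83 and 3.08 times input. The strongest H3K4me3 windows in the runs of these 2 blocks had centred log2 ratios of 0.90 and 0.86 and were not called, although over the chromosome 11 block with 10 kb on each side H3K4me3 was called higher in CD4 cells.

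The other 7 named blocks higher in CD4 cells ranged from 2.69-fold to 5.29-fold. The block chr10:80670001-80690000 held 190 against 37 reads, and chrX:71100001-71120000 held 166 against 35. At chr2:10160001-10180000 the reads were 207 and 49, and at chr12:103630001-103650000 they were 139 and 37. Blocks of 3 windows lay at chr6:115900001-115930000, with 271 and 84 reads, and at chr9:121550001-121580000, with 337 and 112. The block chr4:134930001-134970000 held 345 and 132 reads.

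**Figure D2:**
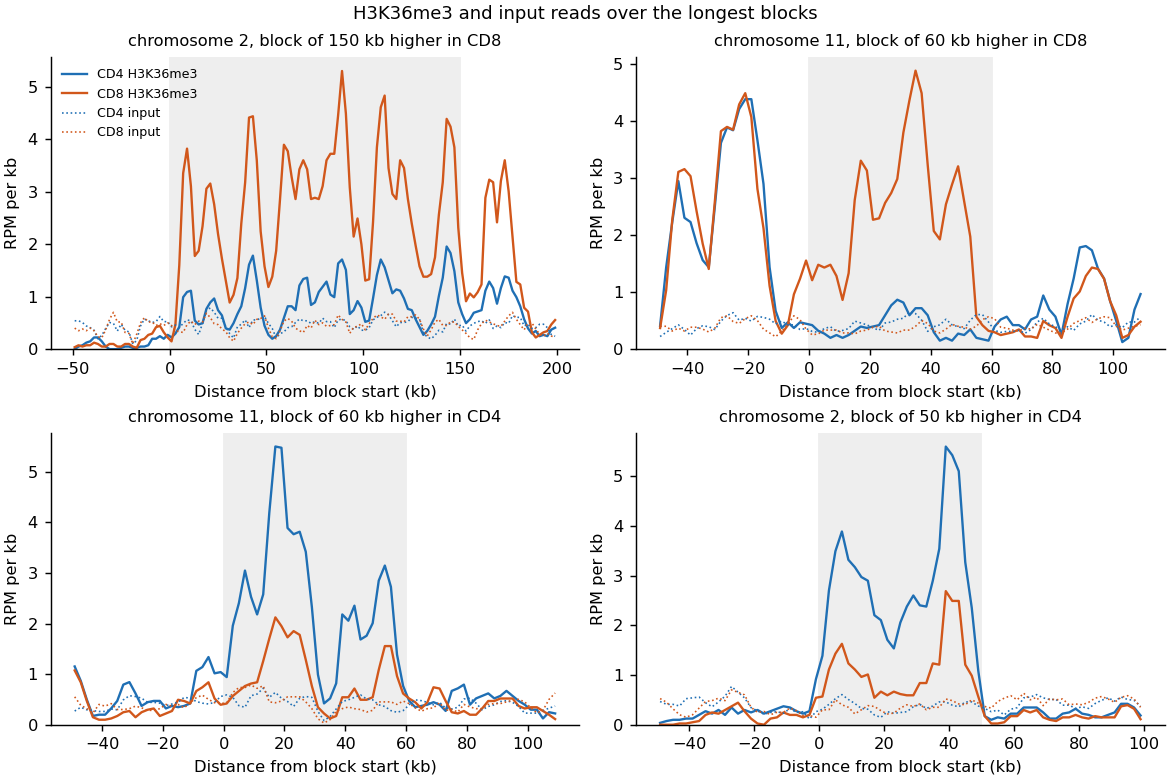
H3K36me3 (solid) and input (dotted) reads per kb, scaled to library size (RPM), in steps of 2 kb, averaged over 3 steps, against the distance from the block start in kb for the longest blocks of each direction. The grey band is the block, and the 2 solid lines part over it while the inputs stay close together.

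The lower cell type was enriched less often in called windows than in tested windows at large. Both cell types were enriched in 24026 of the 30227 tested windows. This held for 29.6% of windows called higher in CD4 cells and 29.2% of those called higher in CD8 cells. The 2-fold rule itself favours a low level in the lower cell type. Among blocks higher in CD4 cells, CD8 cells were below the input level in 86, between 1 and 2 times input in 283, and at 2 times input or more in 150. Among blocks higher in CD8 cells, CD4 cells were below input in 56, between 1 and 2 times in 83, and at 2 times or more in 55. The median level was 3.17 times input in CD4 cells and 1.52 in CD8 cells for the first set, and 3.67 in CD8 cells and 1.36 in CD4 cells for the second. In the named blocks the log2 ratio of the 2 inputs ran from -0.19 to 0.66 in the first set and from -0.41 to 0.47 in the second.

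**Figure D3:**
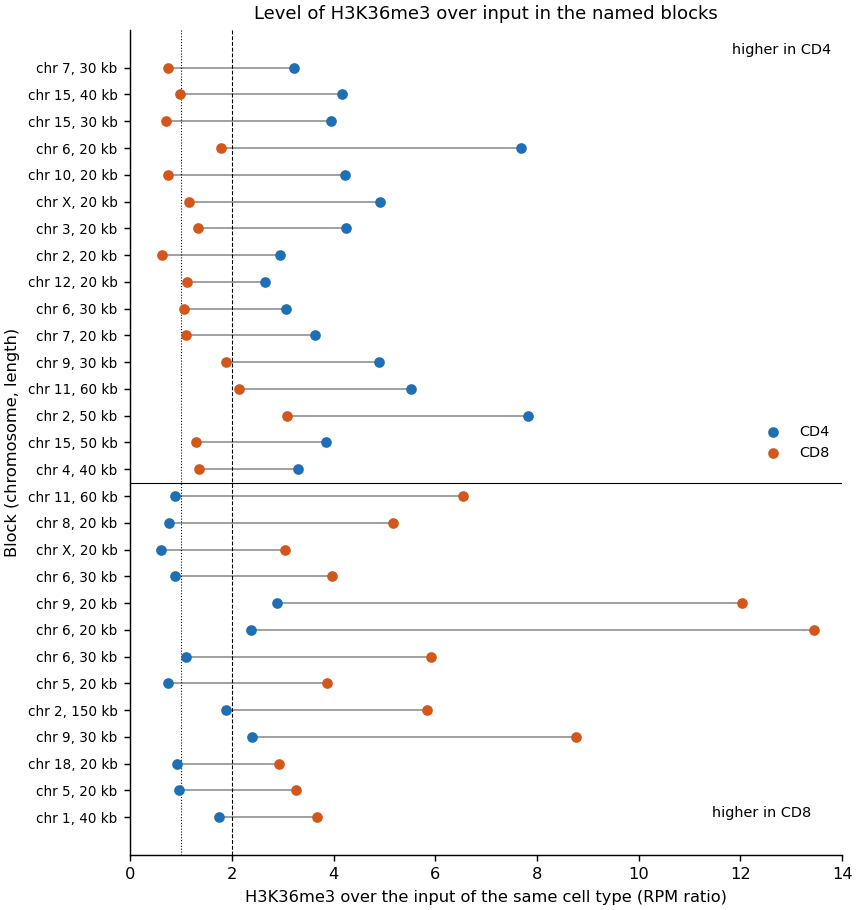
H3K36me3 level of each cell type relative to its own input (ratio of scaled reads) in each of the 29 named blocks, with 1 point for each cell type. In 5 of the 16 blocks higher in CD4 cells and 7 of the 13 higher in CD8 cells, the lower cell type is below 1.

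Most blocks were parts of longer runs of windows enriched in the higher cell type. Of the blocks higher in CD4 cells, 169 filled their run and 350 were part of a longer one. Of the blocks higher in CD8 cells, 58 filled their run and 136 were part of a longer one. The rest of the run, summed, leaned the same way as the block in 332 of the 350 and 125 of the 136. Its median log2 ratio was 0.56 and -0.42. The run was built from windows enriched in the higher cell type, which favours this lean, so these values are a description. The rest was itself 2-fold or more different in the same direction in 13 and 8 of these. That count was held down because adjacent called windows were already in the block. A further block of the same direction lay within 50 kb of 130 blocks higher in CD4 cells (25.0%) and 58 higher in CD8 cells (29.9%). A block of the other direction lay that close to 5 in each set. Some neighbours of the same direction were parted by 1 uncalled window: joined over it, there were 488 and 175 blocks. No such share was counted over tested windows at large, so these counts do not show grouping by direction.

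The chromatin around the blocks differed between the 2 sets. Windows within 200 kb that were enriched in neither cell type had a median log2 ratio of 0.41 around blocks higher in CD4 cells, and 504 of the 519 were above 0 (97.1%), against 77.3% of enriched runs with no called window. Around blocks higher in CD8 cells the median was -0.02, and around enriched runs with no called window it was 0.17. Under the same call rule, windows with at least 20 reads that were enriched in neither cell type gave 472 calls higher in CD4 cells (1.12% of 42040) and 115 higher in CD8 cells (0.274%). The part of this surrounding level in the calls was not tested.

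H3K4me3 beside the blocks was counted over each block with 10 kb on each side, where at least 1 window of 2 kb was enriched, with at least 20 reads and 4 times input. Runs of H3K36me3 with no called window gave the background: of 5913 such runs with H3K4me3, 13.2% were called higher in CD4 cells and 0.49% higher in CD8 cells. Of the 285 blocks higher in CD4 cells that had H3K4me3, 65 were called higher in CD4 cells (22.8%) and 2 higher in CD8 cells (0.702%). Of the 111 blocks higher in CD8 cells that had it, 22 were called higher in CD4 cells (19.8%) and 20 higher in CD8 cells (18.0%). The background was counted over whole runs and the blocks over a shorter stretch. Counted over the run of the block with 10 kb on each side, a setting added after seeing the data, blocks higher in CD8 cells gave 15 of 147 called higher in CD8 cells (10.2%) and 20 higher in CD4 cells (13.6%). Blocks higher in CD4 cells gave 2 of 371 (0.539%) and 72 (19.4%). In this count, blocks that shared a run repeated the same reads, and run lengths were not matched to the background. In either count the share called higher in CD8 cells was larger beside blocks higher in CD8 cells than in the background runs.

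The split depended on how the H3K4me3 libraries were scaled. With their background subtracted, 54 and 5 of the blocks higher in CD4 cells were called higher in CD4 and in CD8 cells, and 19 and 25 of the blocks higher in CD8 cells. Scaled to total reads, the counts were 47 and 16, and 20 and 36. The background runs then gave 9.17% and 4.75%. In all 3 scalings the share higher in CD8 cells was larger beside blocks higher in CD8 cells than in the background runs.

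**Figure D4:**
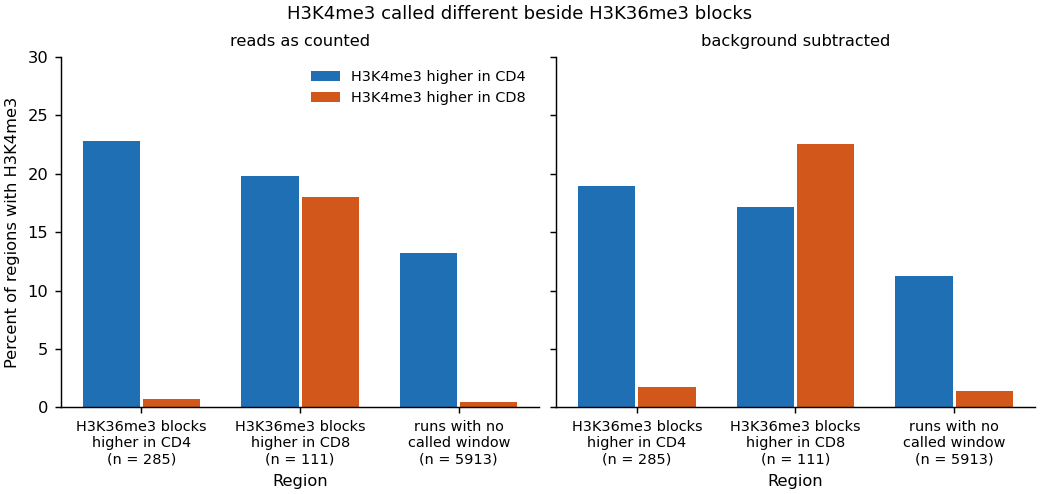
Percent of regions with H3K4me3 that were called higher in CD4 or in CD8 cells, beside blocks of each direction and beside enriched runs with no called window, counted over the block or the whole run with 10 kb on each side, with reads as counted (left) and with each library's background subtracted (right). The bars for H3K4me3 higher in CD8 cells reach 18.0% and 22.5% beside blocks higher in CD8 cells and 0.49% and 1.42% beside runs with no called window.

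The strongest H3K4me3 window of the whole run, with 10 kb on each side, gave a related count. In the runs with no called window it was called higher in CD4 cells in 11.2% and higher in CD8 cells in 3.18%. For blocks higher in CD4 cells it was called higher in CD4 cells in 53 of 371 (14.3%) and higher in CD8 cells in 8 (2.16%). For blocks higher in CD8 cells it was called higher in CD8 cells in 32 of 147 (21.8%) and higher in CD4 cells in 21 (14.3%). Blocks that shared a run counted the same window more than once, and the runs were not matched in length to the background runs. The shares higher in CD4 cells were thus near the background in both sets, and the share higher in CD8 cells was above it in the second.

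Where a run of 5 windows or more had its strongest H3K4me3 within 10 kb of a single end, the place of the block in the run could be read from that end. Of 91 such blocks higher in CD4 cells, 39 lay nearer the H3K4me3 end, 41 nearer the other end and 11 in the middle. Of 42 blocks higher in CD8 cells, 23 lay nearer the H3K4me3 end, 17 nearer the other end and 2 in the middle. Neither set was gathered at the far end of its runs.

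Chromosomes differed in their shares. Chromosome 15 had the highest share of windows higher in CD4 cells, 4.44%, with 0.256% higher in CD8 cells. Chromosomes 7, 17 and 5 followed with 3.33%, 3.19% and 3.0015%. The median log2 ratio of windows enriched in both cell types was also raised on these 4, at 0.11, 0.07, 0.12 and 0.11 in that order. Centred on their own medians, a setting added after seeing the data, chromosomes 15, 7, 17 and 5 gave 2.99%, 2.46%, 1.74% and 2.05%. The X chromosome went the other way, with 6 windows higher in CD4 cells (0.527%) and 19 higher in CD8 cells (1.67%). There the median log2 ratio of windows enriched in both cell types was -0.24, against -0.04 for the inputs. Centred on its own median, the X chromosome gave 9 windows in each direction, so its surplus of CD8 windows was not kept.

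**Figure D5:**
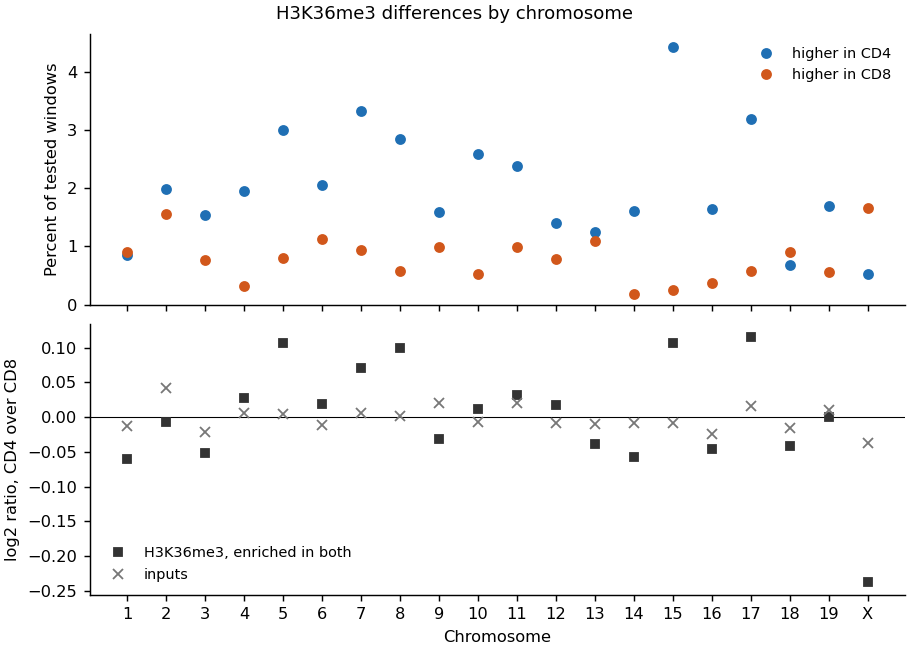
Upper panel: percent of tested windows called higher in CD4 or CD8 cells on each chromosome. Lower panel: median log2 ratio of CD4 over CD8 for H3K36me3 windows enriched in both cell types (squares) and for the inputs (crosses), with the X chromosome lowest at -0.24 for H3K36me3.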

How the data were processed

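The deposited files list read positions on build mm9, per the submitters' processing notes, with no measured value per read; the sources used here name no aligner or filter. Each read was 33 bp wide and was placed by its midpoint, with starts taken as counted from 0. Reads were counted in 10 kb windows. Input was set to at least 3 reads. H3K36me3 ratios were centred on the median log2 ratio of windows enriched in both cell types (-0.04), and H3K4me3 ratios likewise (-0.58). Intervals are exact (Clopper-Pearson, conditional on the summed reads), at 95% unless stated, and cover counting error only, since reads are not independent molecules. Named blocks are the 12 of each direction with the largest lower bound among blocks of 2 windows or more, and the 5 longest. The members and lists were chosen with earlier results of these data known. The planned counts over gene bodies and gene lists needed an mm9 annotation and were not run. No p-value was computed. Only the ratio call was tested on simulated window counts, without read counting, the input filter or block joining. Alternatives covered scaling, thresholds, window size and offset, input, duplicates and joining. Python 3.11.15, NumPy 2.4.6, pandas 2.3.3 and SciPy 1.17.1 were used.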

Additional observations from a re-analysis of the deposited data

Results flagged for a closer look

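On some sequences left out of the comparison, the H3K36me3 libraries stood above input. The level was 2.49 times input in CD4 cells and 2.48 in CD8 cells on the unplaced sequence of chromosome 1, and 2.96 and 3.29 on the sequence assigned to no chromosome. It was 2.09 times input in CD8 cells on the unplaced sequence of chromosome 9. On the mitochondrial sequence the CD8 library stood at 5.89 times input, with 141 reads against 35 in input. The CD4 library stood at 0.629 times input, with 61 reads against 145. The input reads thus differed more between the cell types than the reads of the H3K36me3 libraries did. Whether these reads reflect the mark was not tested. These ratios have no replicate.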

How the results depend on the processing

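Of 66 recomputed counts, 51 were within 1.5 times the reported value. Asking for at least 3 times input gave 379 windows higher in CD4 cells and 159 higher in CD8 cells, in 324 and 116 blocks. A 3-fold threshold gave 97 and 57 windows in 76 and 41 blocks, and 5 kb windows gave 1102 and 517 in 902 and 393 blocks; fewer or smaller windows are built into these settings. For H3K4me3 called higher in CD8 cells, total-read scaling gave 16 beside blocks higher in CD4 cells and 36 beside blocks higher in CD8 cells, and subtracting the background gave 5 beside the former; the cause was not tested. Centring on each chromosome (559 and 262 windows), subtracting the H3K4me3 background and counting H3K4me3 over the whole run were chosen after seeing the data. With 1 read kept per position, 548 of the 628 and 217 of the 253 windows were called again. None of 116 recomputed ratios of named blocks changed direction, and 102 stayed within the 95% interval. Low counts limit single windows. No paired analysis was possible because each group has 1 library.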
